A study of Homo sapiens with 12 samples.

Results

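The genes described here are 10 classical acute-phase genes of the liver: SAA1, SAA2, SAA4, CRP, LBP, ORM1, ORM2, ITIH3, ITIH4 and AHSG. They were taken by symbol from a table of 35984 genes, and each had a row. Of the 10, 6 had enough counts to be tested (SAA2, SAA4, ORM1, ORM2, ITIH3 and AHSG) and 4 had not (SAA1, CRP, LBP and ITIH4). RNA had been sequenced from HepG2, an established human hepatoma line, in 12 libraries that fall into 4 groups of 3. The double knock-down line (DKD) stably expressed shRNAs against the transcripts of MACROH2A1 and MACROH2A2, which encode the macroH2A histone variants, and the other line (CTL) expressed control shRNAs. Both lines had received the shRNA cassettes by retroviral transduction, and both were kept overnight at 0.5% serum. The 4 groups were DKD cells with TNFα at 20 ng/mL for 24 hours, DKD cells left untreated with vehicle, CTL cells with TNFα and CTL cells left untreated with vehicle. The labels do not say whether libraries came from separate cultures, so p-values measure the spread between libraries, which may be technical. They do not say either whether each line was 1 pool of cells, so the knock-down and other differences between the lines cannot be told apart.

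The acute-phase response is the change in plasma proteins that the liver makes after injury or infection. Interleukin-6 acts through JAK kinases and STAT3, and interleukin-1 and TNFα act through NF-κB, often together with C/EBP factors. In human liver, serum amyloid A1 and A2 and C-reactive protein rise steeply, whereas serum amyloid A4 is made constitutively and fetuin-A, the product of AHSG, falls. HepG2 cells are widely used to study this programme.

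Several of the genes lie side by side in near-identical pairs, which bears on what their counts can mean. ORM1 (chr9:114323056-114326475) and ORM2 (chr9:114329869-114333252) stand 3393 bases apart on the plus strand of GRCh38, in the GENCODE 29 annotation. Their coding sequences are 603 bases each and identical at 94.86% of positions, with 31 differences. The 120 coding bases from base 283 to base 402 hold 20 of those differences and are shown because reads can be told apart there; capitals mark the differing bases.
ORM1: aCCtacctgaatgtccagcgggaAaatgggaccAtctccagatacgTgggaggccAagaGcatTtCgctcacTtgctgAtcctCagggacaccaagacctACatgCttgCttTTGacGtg
ORM2: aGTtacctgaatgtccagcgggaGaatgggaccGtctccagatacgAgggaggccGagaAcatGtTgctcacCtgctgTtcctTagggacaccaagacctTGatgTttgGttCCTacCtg
Outside such stretches the pair is hard to separate: of the 31-base windows of ORM1's coding transcript, 56.09% also occur in ORM2. SAA1 and SAA2 are closer still in coding sequence (96.99% of 366 bases, 11 differences). SAA4 is 68.97% identical to either and shares no 31-base window with them, so no exact match of that length could move reads between SAA4 and the inducible pair. SAA4 (chr11:18231349-18236893) and SAA2 (chr11:18239223-18248643) lie 2329 bases apart on the minus strand. A readthrough gene, SAA2-SAA4, has its own row and was at 0 in all 12 libraries.

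The sequences just upstream of SAA4, ITIH3 and ORM1 are shown because the results below turn on these genes. Each is the 250 bases before the RefSeq start site, from the GRCh38.p14 promoter table, written 5′ to 3′ on the strand of the gene. The start sites are RefSeq's, which for these 3 genes lie inside the GENCODE 29 gene bounds. Capitals mark matches to any of 4 motifs searched on both strands: the NF-κB consensus, C/EBP (TTNNGNAA), STAT (TTCNNNGAA) and the HNF1 half-site (GTTAAT).
SAA4, chr11:18236803-18237052, minus strand: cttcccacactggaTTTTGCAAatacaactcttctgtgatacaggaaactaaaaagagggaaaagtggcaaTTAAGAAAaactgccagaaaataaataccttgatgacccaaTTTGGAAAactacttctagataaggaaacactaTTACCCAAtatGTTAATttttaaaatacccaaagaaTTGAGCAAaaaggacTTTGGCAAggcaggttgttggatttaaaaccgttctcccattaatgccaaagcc
ITIH3, chr3:52794546-52794795, plus strand: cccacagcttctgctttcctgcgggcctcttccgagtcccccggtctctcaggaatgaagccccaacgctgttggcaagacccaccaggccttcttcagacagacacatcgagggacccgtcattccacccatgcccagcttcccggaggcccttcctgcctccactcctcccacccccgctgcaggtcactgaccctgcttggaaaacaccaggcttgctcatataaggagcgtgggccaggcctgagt
ORM1, chr9:114322848-114323097, plus strand: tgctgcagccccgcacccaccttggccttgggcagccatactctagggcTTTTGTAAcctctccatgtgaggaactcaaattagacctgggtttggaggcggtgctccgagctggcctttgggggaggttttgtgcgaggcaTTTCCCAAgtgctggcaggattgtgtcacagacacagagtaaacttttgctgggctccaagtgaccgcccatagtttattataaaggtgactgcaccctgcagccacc
The SAA4 window held 6 C/EBP matches and 1 HNF1 match, the ORM1 window 2 C/EBP matches, and the ITIH3 window no match to any of the 4. No 2 of these matches overlapped. Among 35114 promoter windows of the same length, 9.962% held the NF-κB consensus, 33.2% the C/EBP letters, 6.567% the STAT letters and 6.231% the HNF1 letters. Windows with at least 6 C/EBP matches numbered 18 of 35114 (0.0513%), a count made after the SAA4 window had been seen. The SAA4 window is also poor in G and C, at 35.6% against a median of 58% over all windows, and the ITIH3 window stood at 62%. A match is a run of letters and not a shown binding site. Promoter entries were found for 6 of the 10 genes, all but SAA1, SAA2, ORM2 and LBP.

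Library totals ran from 30955080 to 42094144 counts, so that 3 counts, the floor used here, were worth 0.0713 to 0.0961 CPM (counts scaled to one common total per library, after TMM adjustment of library sizes). The knock-down targets were lower in the labelled cells: MACROH2A1 differed by a log2 fold change of -2.27 with TNFα and -2.35 without it, and MACROH2A2 by -3.55 and -3.50. All 8 hepatocyte markers exceeded a mean of 1 CPM in every group. The 16 markers of myeloid, lymphoid, endothelial, stromal and fat cells summed to 10.3 to 18.6 CPM, and CD3E was at 0 in every group. Of the 16, 3 exceeded a mean of 1 CPM in each group with TNFα and 2 in each untreated group. The DKD libraries numbered 1 stood apart. On the first principal component, which held 39.96% of the variance, they lay at -41.6 with TNFα and -65.3 without it, against -12.6 to 31.7 for the other 10. Some comparisons of SAA4, ITIH3, ITIH4, ORM1, ORM2 and AHSG are therefore also given without them. Fold changes of other genes and counts over the gene lists are given with them only.

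SAA4 and ITIH3 were higher in DKD than in CTL cells with and without TNFα, by 3.58- to 4.08-fold. In the fit without pairing SAA4 was called at both treatments, ITIH3 with TNFα only, and no other member at either. SAA4 encodes the constitutive serum amyloid A of high-density lipoprotein. ITIH3 encodes a heavy chain of inter-alpha-trypsin inhibitor, which is linked to hyaluronan in the extracellular matrix. With TNFα, 2 of the 6 tested members were called (SAA4 and ITIH3) against 6.24% of all 16118 genes tested, and without it 1 of the 6 (SAA4) against 4.98%. All these calls were higher in DKD cells; over all genes, 3.94% were called higher with TNFα and 3.13% without it. The median log2 fold change over the 6 was 0.53 with TNFα and 0.48 without it, against 0.00 and 0.01 over all genes tested. In bulk RNA, fewer cells of a kind and less RNA per cell cannot be told apart. The 8 hepatocyte markers moved between the lines too: 3 were called higher in DKD cells at each treatment and none lower. Paired by replicate number, 6 were called higher with TNFα (10.6% of all genes) and 5 without it (9.17%). With TNFα, 4 of them were called lower in DKD cells (0.254% of all genes) and 3 in CTL cells (0.726%), and none higher. Paired, 4 and 5 of these markers were called lower (2.13% and 4.7% of all genes). Their summed level was 20802 to 27469 CPM in DKD cells against 17667 to 19591 CPM in CTL cells with TNFα, and 27388 to 40676 CPM in DKD cells against 22091 to 23849 CPM in CTL cells without it. Their part in the results was not tested.

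**Figure D1:**
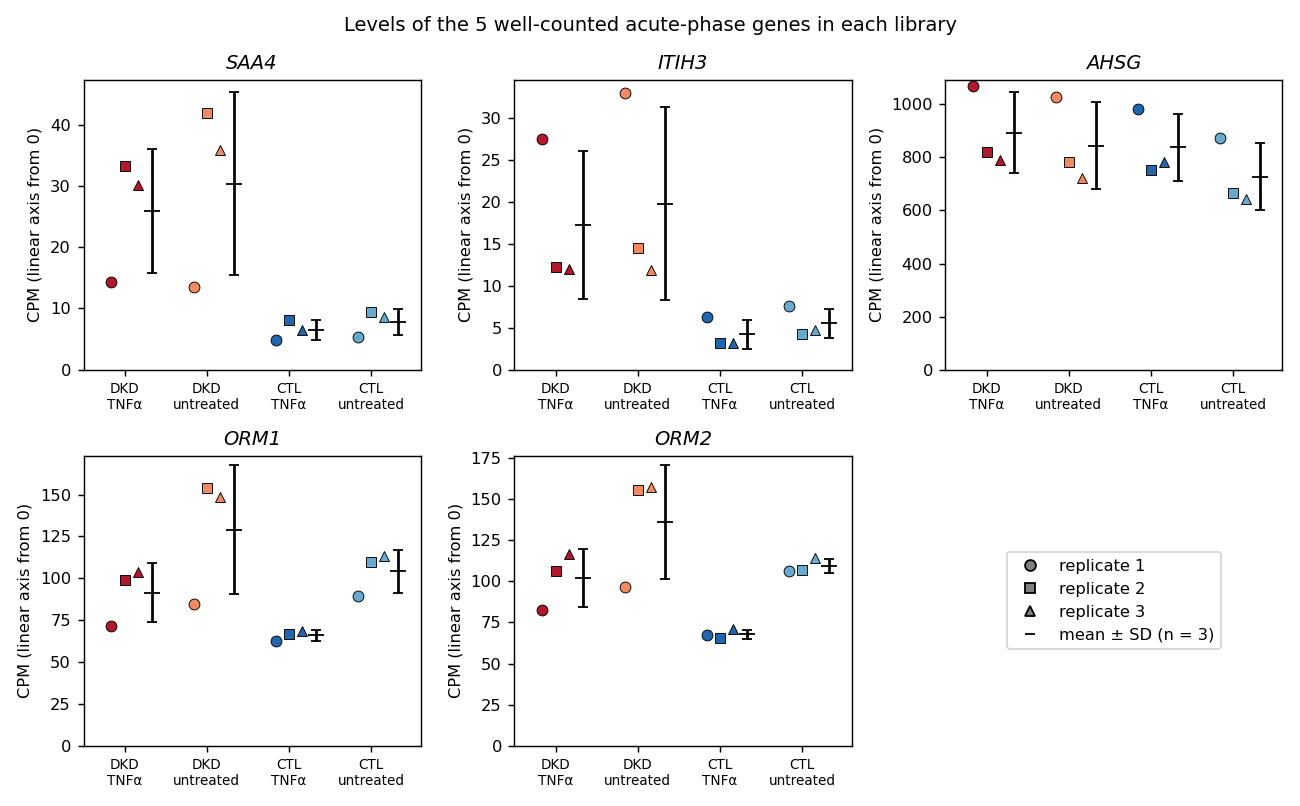
Level of each of the 5 well-counted acute-phase genes in CPM (linear axis from 0) in each library of the 4 groups. Symbols give the replicate number and bars the mean ± SD of 3 libraries. SAA4 and ITIH3 were higher in all 6 DKD libraries than in any CTL library, and the libraries numbered 1 were lowest for SAA4 and highest for ITIH3 within each group.

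SAA4 stood at 14.3, 33.2 and 30.1 CPM in DKD cells with TNFα, against 4.83, 8.09 and 6.55 CPM in CTL cells with TNFα. Without TNFα it stood at 13.6, 41.8 and 35.8 CPM in DKD cells, against 5.35, 9.36 and 8.66 CPM in CTL cells. The lowest DKD library was above the highest CTL library at both treatments, and within each group replicate 1 was the lowest. The means were 25.9 ± 10.2 CPM in DKD cells and 6.49 ± 1.63 CPM in CTL cells with TNFα (SD, n = 3 each). They were 30.4 ± 14.9 CPM in DKD cells and 7.79 ± 2.14 CPM in CTL cells without it (SD, n = 3 each). By edgeR's quasi-likelihood test with Benjamini-Hochberg adjustment, the log2 fold change was 1.99 (SE 0.44, 3.98-fold, adjusted p = 0.0204) with TNFα and 1.97 (SE 0.44, 3.91-fold, adjusted p = 0.0250) without it. Paired by replicate number, the adjusted p was 4.29e-05 and 6.56e-05. Compared number by number, DKD exceeded CTL in 3 of 3 pairs at each treatment, by 1.56, 2.04 and 2.20 on the log2 scale with TNFα and 1.34, 2.16 and 2.05 without it. The smallest difference was in the pair numbered 1 each time. Without both DKD libraries numbered 1, a choice made after seeing the data, the log2 fold change was 2.29 (adjusted p = 0.000373) with TNFα and 2.32 (adjusted p = 0.000384) without it.

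The SAA4 call in the fit without pairing depended on most single libraries of the groups compared. All fits in this paragraph were made without pairing. With TNFα, the adjusted p from edgeR was 0.0752 and 0.0651 when DKD replicate 2 or 3 was left out, and 0.0922, 0.0568 and 0.0829 without CTL replicate 1, 2 or 3. Without TNFα it was 0.0884 and 0.0771 without DKD replicate 2 or 3, and 0.104, 0.0740 and 0.0897 without CTL replicate 1, 2 or 3. Over all fits that leave out 1 of the 12 libraries, the log2 fold change stayed between 1.77 and 2.29 with TNFα and between 1.66 and 2.33 without it. A fit to the untreated groups alone gave 1.96 with an adjusted p of 0.0937.

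ITIH3 stood at 27.5, 12.2 and 12.03 CPM in DKD cells with TNFα, against 6.22, 3.23 and 3.22 CPM in CTL cells with TNFα. Without TNFα it stood at 33.01, 14.5 and 11.8 CPM in DKD cells, against 7.54, 4.29 and 4.68 CPM in CTL cells. Here too the groups did not overlap at either treatment, but replicate 1 was the highest of its group, the opposite of SAA4. The log2 fold change was 2.03 with TNFα (SE 0.48, 4.08-fold, adjusted p = 0.0294 by edgeR) and 1.84 without it (SE 0.47, 3.58-fold, adjusted p = 0.0516), so that the untreated difference missed the threshold. Paired by replicate number, both passed, at adjusted p = 1.10e-05 with TNFα and 2.79e-05 without. DESeq2 called both as well, at adjusted p = 0.000266 and 0.00158. With TNFα, the call from edgeR's fit without pairing was lost when DKD replicate 1 was left out (log2 fold change 1.52, adjusted p = 0.105). It was also lost without CTL replicate 2 (1.87, adjusted p = 0.128) and without CTL replicate 3 (1.87, adjusted p = 0.127). The untreated difference was called without DKD untreated replicate 3 (2.09, adjusted p = 0.0433) and without the DKD TNFα library numbered 1 (1.84, adjusted p = 0.0302). Without both DKD libraries numbered 1, the values were 1.53 with TNFα (adjusted p = 0.0126) and 1.25 without it (adjusted p = 0.0326).

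TNFα did not move either gene past the threshold. SAA4 changed by a log2 fold change of -0.23 in DKD cells (SE 0.42) and -0.26 in CTL cells (SE 0.43), and ITIH3 by -0.20 (SE 0.46) and -0.39 (SE 0.47). All 4 of these comparisons had overlapping groups.

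ITIH4, the neighbour of ITIH3, had few counts outside 2 libraries. The gene (chr3:52812975-52831479, minus strand) ends 3965 bases from the end of ITIH3 (chr3:52794768-52809009, plus strand), the genes facing each other, and encodes a plasma protein that, unlike the other heavy chains, is not joined to bikunin. It had 45, 7 and 9 counts in DKD cells with TNFα, 85, 7 and 7 in untreated DKD cells, 5, 1 and 7 in CTL cells with TNFα, and 9, 4 and 1 in untreated CTL cells. The 2 high values came from the DKD libraries numbered 1, the same that stood apart over all genes. Fitted without a filter on low counts, the log2 fold change of DKD against CTL cells was 2.22 with TNFα (SE 1.15, adjusted p = 0.502 by edgeR) and 2.78 without it (SE 1.12, adjusted p = 0.327). Without both DKD libraries numbered 1, a choice made after seeing the data, it was 0.87 with TNFα (SE 0.77, adjusted p = 0.712) and 0.44 without it (SE 0.78, adjusted p = 0.867).

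ITIH1, ITIH2 and AMBP, which encode other chains of inter-alpha-trypsin inhibitor, stood higher in DKD cells at both treatments, by unlike amounts. Of these, only ITIH2 was called in the fit without pairing. The related gene ITIH5 went the other way. ITIH2, another heavy chain, stood at 436, 525 and 463 CPM in DKD cells with TNFα and 597, 783 and 707 CPM in untreated DKD cells. In CTL cells it stood at 125, 124 and 103 CPM with TNFα and 212, 239 and 185 CPM without. DKD exceeded CTL libraries without overlap at both treatments, by a log2 fold change of 2.02 with TNFα (SE 0.13, adjusted p = 1.67e-05) and 1.71 without it (SE 0.13, adjusted p = 4.21e-05, edgeR). ITIH5, a relative expressed outside the liver as well, was lower in DKD cells by log2 fold changes of -2.01 with TNFα (adjusted p = 5.20e-05) and -2.37 without it (adjusted p = 2.31e-05). ITIH1, whose gene ends 2699 bases from ITIH3, was higher by 1.77 with TNFα (adjusted p = 0.0627) and 1.82 without it (adjusted p = 0.0553). It passed when libraries were paired by number, at 0.00261 and 0.00176. For TNFα, ITIH1 stood at -1.22 in DKD cells (SE 0.46, adjusted p = 0.349, paired 0.0139) and -1.17 in CTL cells (SE 0.50, adjusted p = 0.317, paired 0.0232). AMBP, which encodes bikunin, the light chain, differed by 0.22 with TNFα (adjusted p = 0.0971) and 0.20 without it (adjusted p = 0.135), and passed when paired, at 0.0146 and 0.0220.

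Genes near SAA4 and ITIH3 on the chromosome were also examined, where the annotation's symbol matched that of a count row. Within 100 kb of SAA4, 4 other genes were tested, and 1 was called between untreated DKD and CTL cells: GTF2H1, a subunit of the general transcription factor TFIIH, at a log2 fold change of 0.30 (adjusted p = 0.0396). With TNFα it stood at 0.22 (adjusted p = 0.110) and passed when paired, at 0.0225. Within 100 kb of ITIH3, 1 of 7 was called at each treatment, GLT8D1, at 0.65 with TNFα (adjusted p = 0.0295) and 0.62 without it (adjusted p = 0.0423). Pairing by number added ITIH1 and NEK4, a kinase, whose log2 fold changes were 0.61 with TNFα and 0.63 without. The row STIMATE-MUSTN1, named after STIMATE and MUSTN1 near ITIH3, was tested but is not counted among these neighbours. It stood at 0.82 with TNFα (adjusted p = 0.347 by edgeR, paired 0.0653) and 0.72 without it (adjusted p = 0.436, paired 0.0943). Over all genes tested, 6.24% were called between the lines with TNFα and 4.98% without it. Paired, these shares were 19.4% and 16.5%. With so few neighbours, 1 call more or fewer moves their share widely, and a shared change of either region was not tested.

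**Figure D2:**
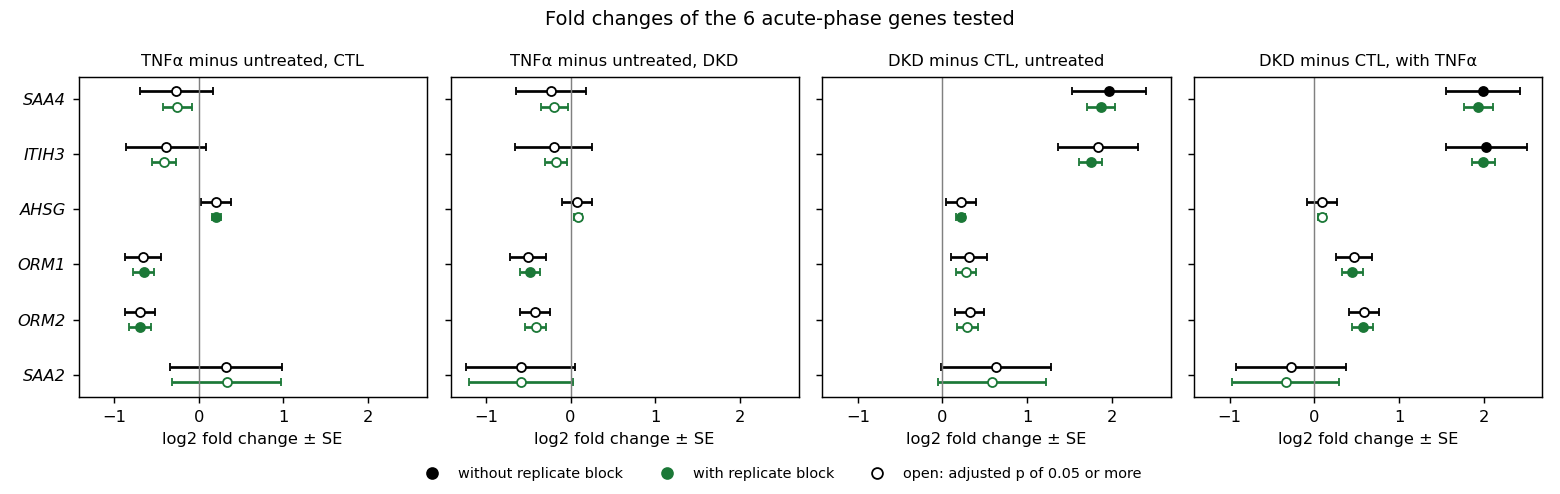
Log2 fold change with its SE for the 6 tested genes in each of 4 comparisons, from edgeR without (black) and with (green) pairing by replicate number; filled points have an adjusted p under 0.05. SAA4 and ITIH3 lie near 2 between the lines, ORM1 and ORM2 lie below 0 with TNFα, and the bars of SAA2 are the widest.

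ORM1 and ORM2 encode alpha-1-acid glycoprotein, the orosomucoid that carries basic drugs in plasma and rises in the acute phase. In these cells both genes were lower in CTL cells with TNFα than without, with no overlap of the groups, but neither passed in the fit without pairing. ORM1 stood at 62.3, 66.8 and 68.5 CPM in CTL cells with TNFα, against 89.7, 110 and 113 CPM in untreated CTL cells. ORM2 stood at 67.1, 65.4 and 70.7 CPM in CTL cells with TNFα, against 106, 107 and 114 CPM in untreated CTL cells. Every CTL library with TNFα was below every untreated CTL library for both genes. The log2 fold change was -0.66 for ORM1 (SE 0.21, adjusted p = 0.159) and -0.69 for ORM2 (SE 0.18, adjusted p = 0.0728), by edgeR's quasi-likelihood test. With pairing by number, both fell, at adjusted p = 0.00757 for ORM1 and 0.00698 for ORM2, and both were lower in 3 of 3 pairs. DESeq2 gave adjusted p = 0.0499 for ORM1 and 0.00812 for ORM2. Both also passed without the DKD untreated library numbered 1, which is not among the libraries compared but shares the estimate of the spread, at 0.0262 for ORM1 and 0.00842 for ORM2. ORM2 alone passed without the DKD TNFα library numbered 1, at 0.0473.

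In DKD cells the orosomucoid genes were lower with TNFα too, but the groups overlapped. ORM1 stood at 71.4, 99.1 and 104 CPM in DKD cells with TNFα, against 84.5, 154 and 149 CPM in untreated DKD cells. ORM2 stood at 82.3, 106 and 117 CPM in DKD cells with TNFα, against 96.3, 156 and 157 CPM in untreated DKD cells. Replicate 1 was the lowest of its group in each case, and the untreated library numbered 1 fell within the range of the treated ones. The log2 fold changes were -0.50 for ORM1 (SE 0.21, adjusted p = 0.445 by edgeR) and -0.42 for ORM2 (SE 0.18, adjusted p = 0.427). With pairing, ORM1 passed at 0.0414 and ORM2 did not, at 0.0860. Without the DKD untreated library numbered 1 the values were -0.74 for ORM1 (adjusted p = 0.0389) and -0.64 for ORM2 (adjusted p = 0.0320). Without both DKD libraries numbered 1 they were -0.58 (adjusted p = 0.0213) and -0.49 (adjusted p = 0.0101).

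Between the lines, ORM1 and ORM2 were higher in DKD cells with TNFα without overlap of the groups, at log2 fold changes of 0.47 (SE 0.21, adjusted p = 0.268 by edgeR) and 0.59 (SE 0.18, adjusted p = 0.0822). Paired, both passed, at 0.0285 and 0.0114. DESeq2 called ORM2, at 0.0290, and not ORM1, at 0.218. ORM2 also passed in edgeR's fit without the DKD untreated library numbered 1, at 0.0104. Without TNFα the lines overlapped, at 0.31 (adjusted p = 0.535) and 0.32 (adjusted p = 0.404), and the pairs numbered 1 went the other way, at -0.09 for ORM1 and -0.14 for ORM2. Without both DKD libraries numbered 1, the untreated differences were 0.54 for ORM1 (adjusted p = 0.00745) and 0.52 for ORM2 (adjusted p = 0.00181). Leaving out the DKD untreated library numbered 1 alone gave ORM2 0.52 with an adjusted p of 0.0400.

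Because reads can be split between the pair, their counts were also summed. The sum gave log2 fold changes of -0.46 for TNFα in DKD cells (adjusted p = 0.424 by edgeR) and -0.68 for TNFα in CTL cells (adjusted p = 0.104). Paired by number these were 0.0575 and 0.00667 as adjusted p. Between the lines the sum gave 0.53 with TNFα (adjusted p = 0.146, paired 0.0164) and 0.31 without it (adjusted p = 0.464, paired 0.149). Without the DKD untreated library numbered 1, the sum passed in all 4 comparisons, at 0.0294, 0.0124, 0.0227 and 0.0483 in the order just given. The share of the pair's counts given to ORM1 was 47.3 ± 0.930% in DKD cells with TNFα and 48.4 ± 1.54% in untreated DKD cells, against 49.3 ± 1.18% in CTL cells with TNFα and 48.7 ± 2.62% in untreated CTL cells (SD, n = 3 each). The 4 ranges overlapped, and all 12 shares lay between 45.7% and 50.6%.

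**Figure D3:**
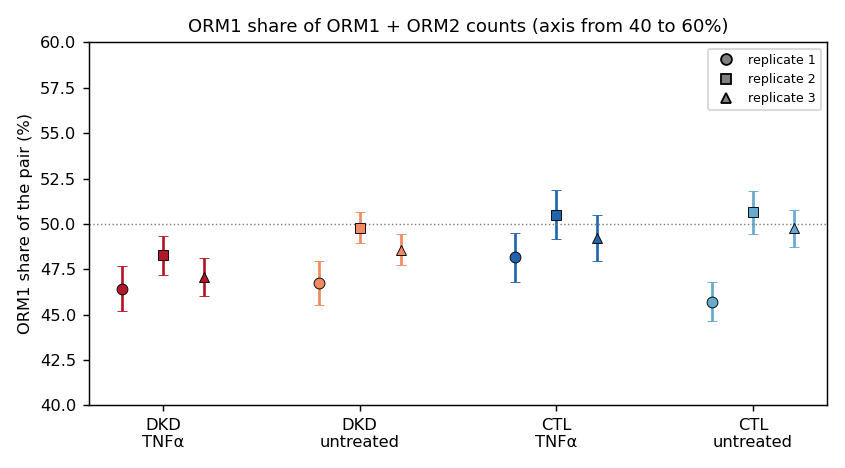
Share of ORM1 among the summed counts of ORM1 and ORM2 in each library (axis from 40 to 60%), with Wilson 95% confidence intervals that cover counting error only. Shares ran from 45.7% to 50.6%, and the 4 groups overlapped.

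AHSG encodes fetuin-A, a carrier of calcium phosphate in plasma whose level falls in the acute phase. It stood at 1069, 821 and 791 CPM in DKD cells with TNFα and at 1029, 783 and 723 CPM in untreated DKD cells. In CTL cells it stood at 984, 751 and 783 CPM with TNFα and at 872, 665 and 644 CPM without. All groups overlapped, and replicate 1 was the highest in each. The log2 fold changes for TNFα were 0.08 in DKD cells (SE 0.18) and 0.21 in CTL cells (SE 0.18), and those for DKD against CTL were 0.09 with TNFα (SE 0.18) and 0.22 without it (SE 0.18). None passed in edgeR's fit without pairing, where the lowest adjusted p was 0.616. With pairing, AHSG was higher with TNFα in CTL cells (adjusted p = 0.0191) and in untreated DKD than in untreated CTL cells (adjusted p = 0.0139), each in 3 of 3 pairs. The other 2 comparisons stayed at 0.382 and 0.266. Without both DKD libraries numbered 1, the difference between untreated lines was 0.05 (adjusted p = 0.882).

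The genes that respond most steeply in the liver gave almost no counts in these libraries. CRP (C-reactive protein, chr1:159712289-159714589) had 0 counts in all 12. SAA1 (chr11:18266174-18269977) had 1 count, in the untreated DKD library numbered 1. LBP, which presents bacterial lipopolysaccharide to CD14, had 5, 0 and 0 counts in DKD cells with TNFα, 0, 0 and 1 in untreated DKD cells, 0, 4 and 1 in CTL cells with TNFα and 0, 2 and 3 in untreated CTL cells. A count of 0 allows up to 0.0713 to 0.0961 CPM, depending on the library, so that a level under that floor could not be told from absence there. These floors cover counting error only. SAA2 passed the filter narrowly, at 10, 3 and 4 counts in DKD cells with TNFα and 13, 4 and 8 in untreated DKD cells. It had 6, 4 and 11 counts in CTL cells with TNFα and 5, 7 and 3 in untreated CTL cells. All SAA2 groups overlapped. Its log2 fold changes over the 4 comparisons ran from -0.59 (SE 0.64, TNFα in DKD cells) to 0.63 (SE 0.65, DKD against CTL without TNFα). Reads that SAA1 and SAA2 share could have been given to either. Their sum was close to SAA2 alone, at -0.65 for TNFα in DKD cells (SE 0.65) and 0.32 for TNFα in CTL cells (SE 0.67).

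**Figure D4:**
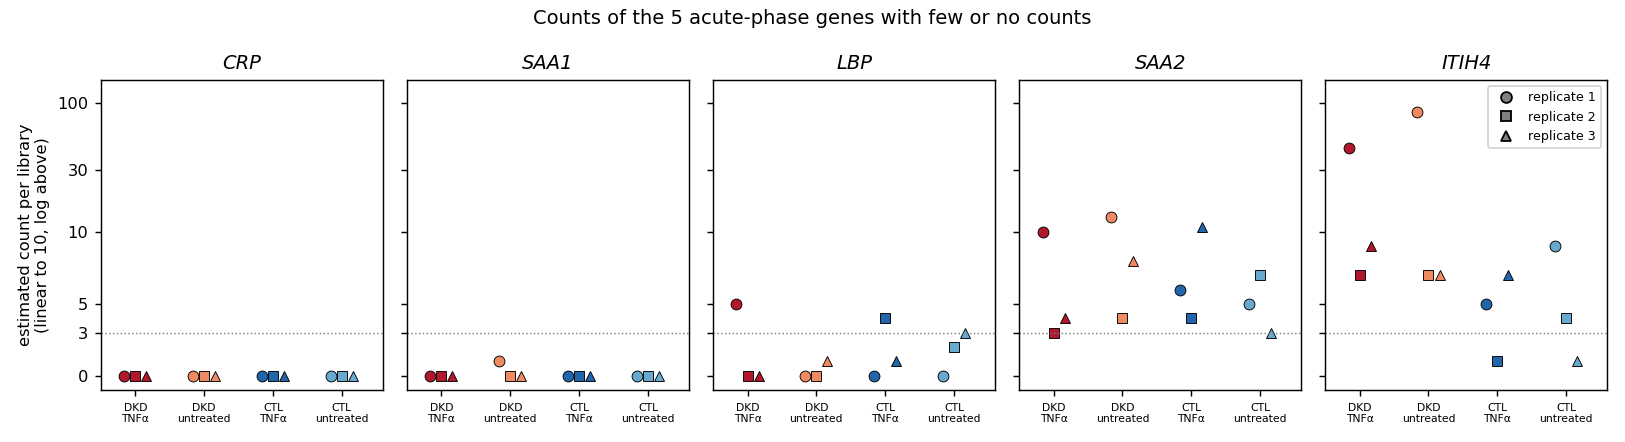
Estimated counts per library of the 5 genes with few or no counts (axis linear up to 10 and logarithmic above); the dotted line marks the floor of 3 counts. CRP was at 0 throughout, and ITIH4 exceeded 10 counts in 2 libraries, both DKD replicate 1.

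For TNFα over the 6 tested members, 0 were called in DKD cells, where 1.79% of all genes tested were called, and 0 in CTL cells, where 2.62% were. At an unadjusted p under 0.05 there were 2 members in each line, ORM1 and ORM2. Over all 16118 genes there were 1634 in DKD cells and 2234 in CTL cells. DESeq2 called 0 members in DKD cells (655 of 15472 genes) and 2 in CTL cells (1070 of 14226 genes). Paired by number, 1 member was called in DKD cells (ORM1, background 7.67%) and 3 in CTL cells (AHSG, ORM1 and ORM2, background 12.6%). Paired counts between the lines were 4 with TNFα (background 19.4%) and 3 without it (background 16.5%). Groups did not overlap for 0 of the 6 with TNFα in DKD cells (12.3% of all genes) and for 2 in CTL cells (25.1%). Between the lines they did not overlap for 4 with TNFα (25.4%) and 2 without it (21.7%). The median log2 fold change of the 6 with TNFα was -0.33 in DKD cells and -0.32 in CTL cells, against -0.01 and 0.00 over all genes. With 6 members, 1 more or fewer call moves these shares widely.

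The test of whether TNFα acted differently in the 2 lines called 0 of the 6 members and 0 of the 16118 genes (background 0%) in edgeR's fit. At an unadjusted p under 0.05 there were 0 members and 184 genes, and DESeq2 called 0 members and 5 genes. The interaction estimates were 0.03 for SAA4 (SE 0.60), 0.19 for ITIH3 (SE 0.65), 0.16 for ORM1 (SE 0.30), 0.27 for ORM2 (SE 0.25), -0.13 for AHSG (SE 0.25) and -0.91 for SAA2 (SE 0.92) on the log2 scale. These errors leave room for differences of the size of the TNFα effects themselves.

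Other genes listed here as positive acute-phase proteins, meaning those that rise in the response, were higher in DKD cells in many cases. The list was broad and included A2M, which was called higher at both treatments. Of 26 listed, 22 were tested. Of these, 10 were called higher with TNFα, where 3.94% of all genes were, and 9 without it, where 3.13% were, with none lower. The median log2 fold changes were 0.69 and 0.85. Paired by number, 14 with TNFα (10.6% of all genes) and 15 without it (9.17%) were called higher and none lower. With TNFα these included FGG and FGB, the gamma and beta chains of fibrinogen, at 2.40 (SE 0.24) and 1.97 (SE 0.22), and HP, the haemoglobin-binding haptoglobin, at 1.69 (SE 0.15). Without TNFα, FGB, FGG and FGA, the alpha chain, stood at 3.10 (SE 0.23), 2.42 (SE 0.24) and 2.81 (SE 0.44), and HP at 0.98 (SE 0.14). Of the negative acute-phase proteins, which the liver decreases, 11 were tested, and 4 were called higher at each treatment and none lower. Paired, 6 were called higher with TNFα and 7 without it, against the same shares of all genes. Not all members pointed that way: AFM, afamin, stood at -0.41 with TNFα and -0.07 without it, and APOA2 at -0.28 and -0.05, none of them called. Among those called was ALB, albumin, at 3.35 with TNFα (SE 0.25) and 3.72 without it (SE 0.25). RBP4, the retinol carrier, stood at 0.79 (SE 0.11) with TNFα and 0.52 (SE 0.11) without it.

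With TNFα, the positive list split. In DKD cells 3 of the 22 were called higher and 4 lower, and in CTL cells 3 higher and 3 lower. Over all genes tested, 1.54% were called higher and 0.254% lower in DKD cells, and 1.9% higher and 0.726% lower in CTL cells. Paired, the list had 3 higher and 6 lower in DKD cells (5.55% and 2.13% of all genes) and 6 higher and 6 lower in CTL cells (7.94% and 4.7%). C3, the central complement component, rose by 1.04 in DKD cells (SE 0.12) and 1.07 in CTL cells (SE 0.12), and LRG1, a leucine-rich plasma glycoprotein, by 1.13 (SE 0.16) and 1.16 (SE 0.16). FGG fell by 1.61 in DKD cells (SE 0.23) and 1.59 in CTL cells (SE 0.23), and HP fell by 0.65 (SE 0.14) and 1.37 (SE 0.15). Among the 11 negative proteins 4 fell in DKD cells and 3 in CTL cells, and none rose; paired, 5 fell in each line. RBP4 fell by 0.79 in DKD cells (SE 0.11) and 1.07 in CTL cells (SE 0.11), and TF, the iron carrier transferrin, by 0.66 (SE 0.14) and 0.84 (SE 0.14). AHSG, itself a negative acute-phase protein, was not among those that fell.

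**Figure D5:**
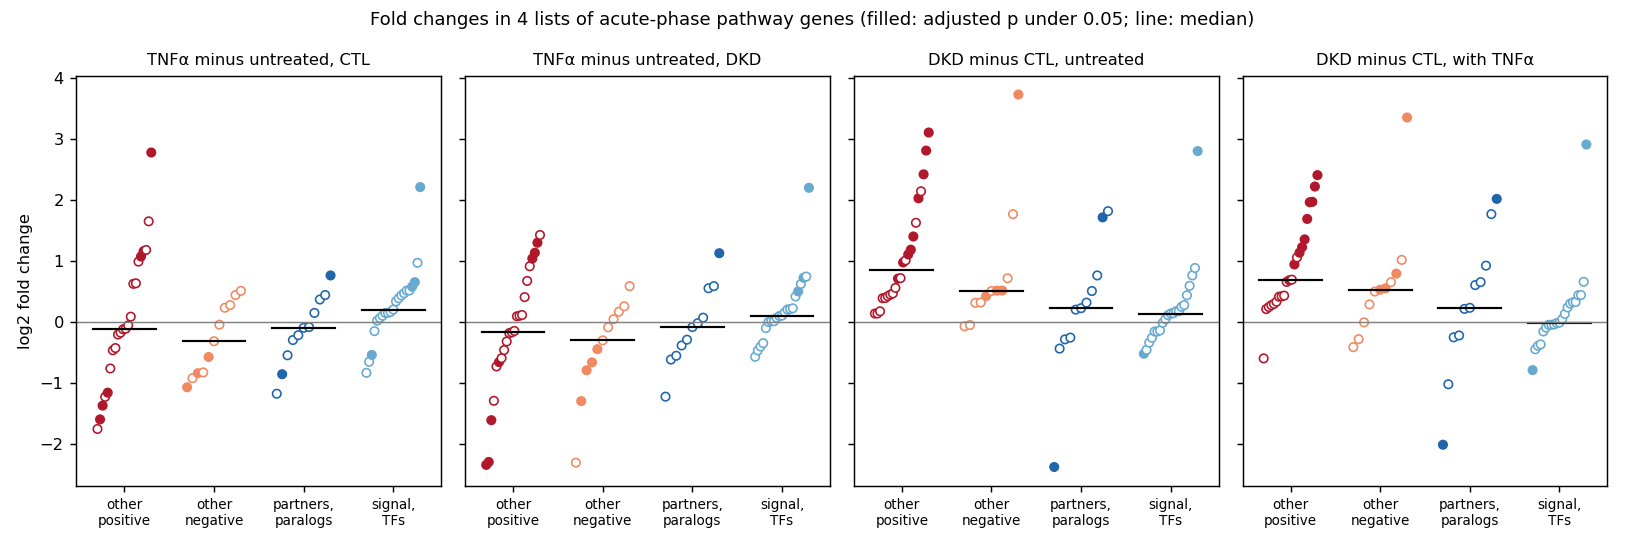
Log2 fold change of each tested gene of 4 lists (22 other positive and 11 other negative acute-phase proteins, 11 partners and paralogs, 21 signal and transcription factor genes, TFs) in each comparison; filled points have an adjusted p under 0.05 and lines mark medians. The positive and negative lists both had more genes called higher than lower between the lines.

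The signal side of the programme was measured in 23 genes, of which 21 were tested. NFKBIA, the inhibitor of NF-κB and one of its own targets, rose with TNFα by 2.20 in DKD cells (SE 0.17, adjusted p = 0.000154) and 2.21 in CTL cells (SE 0.17, adjusted p = 0.000109), by edgeR. NFKB1, a subunit of NF-κB, rose by 0.73 (SE 0.13) and 0.65 (SE 0.13), and JAK1 by 0.50 (SE 0.07) and 0.58 (SE 0.07). In CTL cells NR3C1, the glucocorticoid receptor, fell by 0.54 (SE 0.12). In DKD cells NR3C1 stood at -0.40 (adjusted p = 0.183, paired 0.0194). In all, 3 rose and none fell in DKD cells (1.79% of all genes called in either direction), and 3 rose and 1 fell in CTL cells (2.62%). Paired, 6 rose and 1 fell in DKD cells (7.67%), and 7 rose and 2 fell in CTL cells (12.6%). Between the lines, JAK2, a kinase of the interleukin-6 receptor, was higher in DKD cells by 2.91 with TNFα (SE 0.21) and 2.80 without it (SE 0.21). IL6R, the receptor's ligand-binding chain, stood at a log2 fold change of -0.79 with TNFα (SE 0.19, adjusted p = 0.0294) and -0.45 without it (SE 0.19, adjusted p = 0.234, paired 0.00400). NFKB1 stood at -0.45 with TNFα (SE 0.12, adjusted p = 0.0618, paired 0.00562) and -0.52 without it (SE 0.13, adjusted p = 0.0383). In all, 1 signal gene was called higher and 1 lower at each treatment (6.24% of all genes called with TNFα, 4.98% without it), and paired 3 higher and 3 lower (19.4% and 16.5%). IL6 and IL1B, the cytokines themselves, had at most 1 count in any library. Of 17 listed partners and paralogs of the members, 11 were tested. Called were ITIH2 and ITIH5 between the lines, ITIH5 with TNFα in both lines (1.13 in DKD cells, SE 0.16, and 0.76 in CTL cells, SE 0.15) and ITIH2 with TNFα in CTL cells (-0.85, SE 0.13). In DKD cells ITIH2 stood at -0.55 with TNFα (SE 0.13, adjusted p = 0.0673), which passed when paired, at 0.00478. CD14, TLR4 and LY96, through which LBP acts on lipopolysaccharide, had at most 10 counts in any library. Among the markers of other cells ITGAM, a myeloid integrin, was higher with TNFα. It averaged 3.35 ± 1.54 CPM in DKD cells with TNFα and 0.0238 ± 0.0413 CPM without, and 3.16 ± 0.498 CPM in CTL cells with TNFα and 0.0241 ± 0.0240 CPM without (SD, n = 3 each). The part of such markers in the changes above was not tested.

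The genes whose pattern over the 12 libraries was most like that of SAA4 and ITIH3 were found by the root mean square difference of centred log2 CPM, among 11041 candidates. For SAA4, whose own spread was 1.04, these were ETNPPL (0.331), ADORA2A (0.391) and SPARC (0.394). For ITIH3, whose spread was 1.01, they were COL16A1 (0.148), NR3C2 (0.224) and ENPP2 (0.274). Neither gene was among the nearest of the other.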

How the data were processed

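RNA-seq of 12 HepG2 libraries was analysed, 3 in each of 4 groups named by the labels. Estimated counts per gene, as the authors deposited them, were all whole numbers. The submitters' processing notes name Salmon 0.14.0, CASAVA 1.7, DESeq2 and the GRCh38/hg38 build. How transcripts were joined to genes, the annotation and strandedness are not stated there. The authors also deposited a signal, which equals the counts divided by 1 size factor per library and was used only for that check. Reads from genes overlapping on opposite strands could have been given to either.

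Counts were fitted with edgeR 4.0.16 in R 4.3.3: TMM factors, filterByExpr (minimum count 10, minimum total 15), 1 mean per group over all 12 libraries (8 residual degrees of freedom) and the quasi-likelihood test. P-values were adjusted by Benjamini-Hochberg over all 16118 genes tested, with calls at an adjusted p under 0.05. CPM used TMM-scaled library totals. The 5 contrasts were TNFα in each line, DKD against CTL at each treatment, and the interaction. The replicate numbers in the labels pair the libraries: same-numbered libraries deviated together in all 12 pairs compared (r from 0.338 to 0.810 over genes), so the fit with the number as a block is printed beside each printed test whose call it changes. On simulated counts for the 4 contrasts between groups, the fit recovered 77% to 82% of genes changed by 1 and 93% to 97% of those changed by 2 on the log2 scale. It also called 7 to 14 unchanged genes per contrast. Changes were put only into better-counted genes, so these shares do not cover SAA2. Libraries were drawn independently, without the shared deviation by number seen in the data, so the shares are not those of any 1 member. Alternatives were DESeq2 1.42.0, RLE factors (size factors by relative log expression), no filter, only the groups compared, only replicates 2 and 3, and each library left out. Likeness, given for members with a called change, used log2(CPM + 0.5) over genes with a mean log2 CPM of at least 2. Coding sequences were aligned with Biopython 1.88. The 10 genes, the gene lists and the tests were chosen with earlier results of these data known. From each list, up to 4 called genes of smallest p per contrast could be named; levels of IL6, IL1B, CD14, TLR4, LY96 and ITGAM, the values of AFM and APOA2, single values of ITIH1, NR3C1, IL6R and NFKB1 that were not called, and the genes near SAA4 and ITIH3 were chosen after their values were seen.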

Additional observations from a re-analysis of the deposited data

How the results depend on the processing

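Counts of called members are given in the order TNFα in DKD cells, TNFα in CTL cells, DKD against CTL with TNFα, and DKD against CTL without TNFα, where the fit described above gave 0, 0, 2 and 1. With the replicate block (pairing by number) they were 1, 3, 4 and 3. With only replicates 2 and 3 they were 2, 2, 4 and 4, and without both DKD libraries numbered 1, chosen after seeing the data, also 2, 2, 4 and 4. DESeq2 gave 2 for TNFα in CTL cells and 2 for DKD against CTL without TNFα. For DKD against CTL with TNFα, its calls included ORM2, which edgeR without pairing did not call. Fits to only the groups compared gave 2 for TNFα in CTL cells (691 of 15458 genes) and 0 for DKD against CTL without TNFα (332 of 15456 genes). The fit with no filter on low counts gave 2 for the last (667 of 25528 genes). Leaving out 1 library at a time, in fits without pairing, the counts ran from 0 to 2, 0 to 2, 0 to 3 and 0 to 2. Over all genes, calls in those fits ran from 127 to 357, 149 to 709, 572 to 1545 and 423 to 917, of 16380 to 16452 tested. The interaction had 0 called members under every alternative run. RLE factors moved the median of all genes by under 0.1 and changed no count of called members by over 1.5 times. Over all genes, the block moved the calls to 1237, 2037, 3133 and 2657, against 289, 423, 1005 and 803 without it, and DESeq2 made 655, 1070, 1760 and 1434. With only replicates 2 and 3 the calls over all genes were 1360, 2225, 2375 and 1983 of 16133 tested. Without both DKD libraries numbered 1 they were 466, 1400, 1501 and 1384 of 16283. Calls over all genes thus rose along with those of the members in these fits.

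Of 480 single fold changes with 1 library left out, 427 kept their direction and side of the threshold, 13 were lost, 13 were gained and 27 changed sign; of 253 under other alternatives the numbers were 205, 1, 45 and 2. The cause was not tested. The 2 changes of sign were AHSG for DKD against CTL with TNFα (-0.0521) and the SAA4 interaction (-0.0320), both without the DKD libraries numbered 1. With 1 library left out, none of the results that changed sign was called in any of these fits. Their log2 ranges for TNFα in DKD cells were -0.0680 to 0.227 (AHSG), -0.71 to 0.36 (ITIH3) and -0.60 to 0.0677 (SAA4), and for TNFα in CTL cells -0.145 to 0.769 (SAA2 and its sum with SAA1). For DKD against CTL with TNFα they were -0.0575 to 0.215 (AHSG) and -0.98 to 0.18 (SAA2 and its sum with SAA1). For the interaction they were -0.276 to 0.0294 (AHSG), -0.32 to 0.76 (ITIH3), -0.0742 to 0.314 (ORM1), -0.33 to 0.33 (SAA4) and -0.00411 to 0.359 (ORM1 plus ORM2). Depth limits CRP, SAA1, LBP, SAA2 and ITIH4, whose counts lay near the floor in most libraries.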
